A study of Homo sapiens with 6 samples.

Results

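The genes described here are 39 targets and regulators of the transcription factor NRF2, chosen as a list of genes that make antioxidants, supply NADPH, handle iron and haem, export conjugates and control the response itself. The list was chosen with earlier results of these data known. They were measured in ES-2, an established human ovarian cancer cell line, on 6 Affymetrix PrimeView arrays, on which sets of short oligonucleotide probes read each transcript in 1 colour. The labels assign 3 arrays to cells overexpressing CADM1, a cell adhesion molecule, and 3 to ES-2 cells without that change, which the series text calls mock controls. The series set out to find pathways linked to CADM1 as a tumour suppressor. The labels name no vector, clone, passage or batch and do not state whether cultures were separate, so the p-values cover array-to-array spread that may be only technical. Each gene was read from its brightest single-gene probe set, with probe sets of the _x_at suffix used only as a last resort. In this way 35 of the 39 genes were measured, out of 18132 genes in all. FTH1 and MAFK were not analysed here, and the probe sets that name TRIM16 and TRIM16L together were not used.

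NRF2, encoded by NFE2L2, is held low in unstressed cells because KEAP1 presents it to a CUL3 ubiquitin ligase for degradation. Oxidants and electrophiles modify cysteines of KEAP1, NRF2 then accumulates, pairs with a small MAF protein and binds antioxidant response elements near its target genes. The targets make glutathione, keep thioredoxin and peroxiredoxins reduced, supply the NADPH that both systems consume, store iron, and conjugate and export reactive compounds. Many carcinomas carry an active NRF2 programme, which is known for drug resistance.

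The letters of the antioxidant response element core are shown first, because NRF2 is known to act through this element. RefSeq promoter windows (GRCh38.p14, 250 bases before to 50 bases after an annotated start) were held for 29 of the 39 members, some with several starts. The motif searched was TGACNNNGC, on both strands, where N is any base. It was found in 14 of 40 member windows (35%) and in 13.3% of all 35116 windows. By gene, 13 of the 29 members had it in at least 1 window, against 18.2% of the 14425 measured genes with a window. A match is a description of the letters and not a binding site, and no match says only that the letters are not in the window. The 29-base stretches below, in the direction of the gene, carry the motif in capitals for a selection of the matches. Members without a call are among them, and other matches, that of IDH1 included, are not printed. An antisense match reads GCNNNGTCA.

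GCLM (chr1:93909446-93909474, minus strand, motif at -34): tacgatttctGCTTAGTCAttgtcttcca
EPHX1 (chr1:225825266-225825294, plus strand, motif at -78): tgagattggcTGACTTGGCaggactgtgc
TXNRD1 (chr12:104286920-104286948, plus strand, motif at -102): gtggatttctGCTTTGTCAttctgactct
TXNRD1 (chr12:104215670-104215698, plus strand, another start, motif at -99): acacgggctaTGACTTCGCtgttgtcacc
ME1 (chr6:83431170-83431198, minus strand, motif at -137): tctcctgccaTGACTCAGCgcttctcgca
PIR (chrX:15493289-15493317, minus strand, motif at 27): gccgcgaagcGCTGAGTCAcggtgaggct
KEAP1 (chr19:10502784-10502812, minus strand, motif at -31): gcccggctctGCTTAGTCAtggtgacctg
GSTP1 (chr11:67583736-67583764, plus strand, motif at -66): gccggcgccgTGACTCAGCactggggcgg

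The stretches from GCLM and KEAP1 hold the same 9 capitals, GCTTAGTCA, and those from ME1 and GSTP1 share TGACTCAGC. Of the members with a higher call below, 8 had a window, and the motif was in those of GCLM and EPHX1. The 250 bases before the start of GCLM and of SRXN1 are set side by side as a called member with the motif and a called member without it in this window.

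GCLM (chr1:93909431-93909680, minus strand): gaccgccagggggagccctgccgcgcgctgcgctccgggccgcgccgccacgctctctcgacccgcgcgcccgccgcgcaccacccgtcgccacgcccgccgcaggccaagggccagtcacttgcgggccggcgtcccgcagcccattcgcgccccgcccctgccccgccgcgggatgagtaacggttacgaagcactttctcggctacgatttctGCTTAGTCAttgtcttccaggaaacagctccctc
SRXN1 (chr20:653201-653450, minus strand): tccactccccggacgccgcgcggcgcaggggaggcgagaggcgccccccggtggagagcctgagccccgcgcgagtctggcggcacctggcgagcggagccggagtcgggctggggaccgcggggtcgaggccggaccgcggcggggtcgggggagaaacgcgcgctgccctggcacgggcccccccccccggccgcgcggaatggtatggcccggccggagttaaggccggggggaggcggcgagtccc

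**Figure D1:**
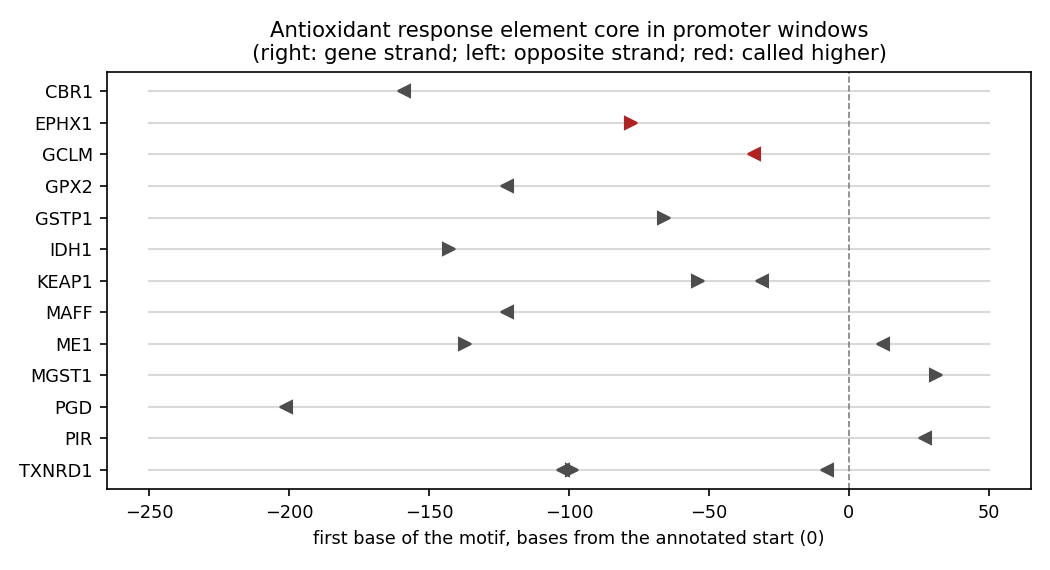
Position of the antioxidant response element core in the promoter windows of the 13 members that hold it, with the horizontal axis giving the first base of the motif in bases from the annotated start and each row a gene. Triangles pointing right are matches on the gene strand, triangles pointing left matches on the opposite strand, and red marks the called members EPHX1 and GCLM; several windows of TXNRD1 are drawn on 1 row, and ME1 has a match on each side of its start.

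The brightest CADM1 probe set goes against the labels, so the groups are called by their labels throughout. Its log2 signal was 8.14, 8.10 and 8.18 in the arrays labelled overexpression and 10.24, 10.29 and 10.23 in those labelled control, which put the labelled overexpression group lower by a log2 difference of -2.12 ± 0.031 (limma SE, adjusted p = 5.53e-15). Of the 6 CADM1 probe sets 3 had this sign and 1, the brightest, was called. The second-brightest CADM1 probe set gave 0.17 (limma, adjusted p = 0.0992) and the mean of all 6 gave -0.32 (limma, adjusted p = 0.0013). The source names of 2 overexpression arrays read CADM2 and CADM3. Array medians lay between 6.18 and 6.20, correlations between arrays ran from 0.998 to 0.999, and how the probes were summarised stays unsettled. Of the epithelial markers, KRT7, KRT8 and KRT18 averaged 12.5 to 13.3, while KRT19, EPCAM and CDH1 lay below the table's median of 6.19. Among ovarian carcinoma markers MSLN, FOLR1 and NAPSA lay above that median and PAX8, WT1 and MUC16 below it. The summed linear signal of the epithelial list was 23008 to 23437 in the overexpression arrays and 24237 to 24297 in the controls, and its part in the results below was not tested. KRT7, KRT8 and KRT18 gave log2 fold changes of -0.06, -0.04 and -0.07, and no epithelial or ovarian carcinoma marker was called. In a fit of every probe set 1 of the 2 KRT18 probe sets was called lower. Of the 4 endothelial markers CDH5 was called lower (limma, adjusted p = 0.0475), and none of the fibroblast and leukocyte markers was called. That is 1 of 27 measured markers, where 1.20% of all genes were called lower. In the fit of every probe set 0 of the 2 CDH5 probe sets were called. KDR, also endothelial, gave 0.26 and was not called.

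Every call among the NRF2 members was towards a higher signal in the arrays labelled overexpression, and the amounts were small. Of the 35 measured, 10 rose and none fell at an adjusted p under 0.05 (limma with a mean-variance trend, adjusted over 18132 genes), and the others were not called. These 10 were OSGIN1, SRXN1, GSR, GCLC, GCLM, NQO1, EPHX1, SLC7A11, SQSTM1 and ABCC2. That is 28.6% of the members, where 0.960% of all genes were called higher and 1.20% lower. Because earlier results of these data were known when the members were chosen, this contrast is a description and not a test. At an unadjusted p under 0.05 (limma), 23 members were higher and 2 were lower, where 6.95% of all genes were higher and 6.97% lower. The median log2 fold change was 0.07 over the members and 0.01 over all genes, and 29 of 35 members lay above 0, as did 54.6% of all genes. The groups did not overlap for 21 members that were higher, 60.0% of those measured against a background of 9.68%, and for 1 that was lower, IDH1, against 8.61%. The median SD within a group was 0.031 for the members and 0.065 for all genes.

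The calls rest on how the spread of each gene was modelled. In the fit with a trend, limma draws each gene's variance towards that of genes of like signal, and 392 genes were called in either direction (2.16%). Without the trend, 0 members and 11 genes in all were called. In that fit 13 members were higher at an unadjusted p under 0.05, as were 6.16% of all genes, and the lowest adjusted p of a member was 0.0895, that of SRXN1. Among the genes at or above the median level, where 2.50% of genes were called higher, 13 of 31 members were. Leaving out each array in turn gave 7 to 11 members called higher, with 7 without the first overexpression array, the first control array or the second control array. The share of all genes called higher was 0.309%, 0.325% and 0.463% in those fits.

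**Figure D2:**
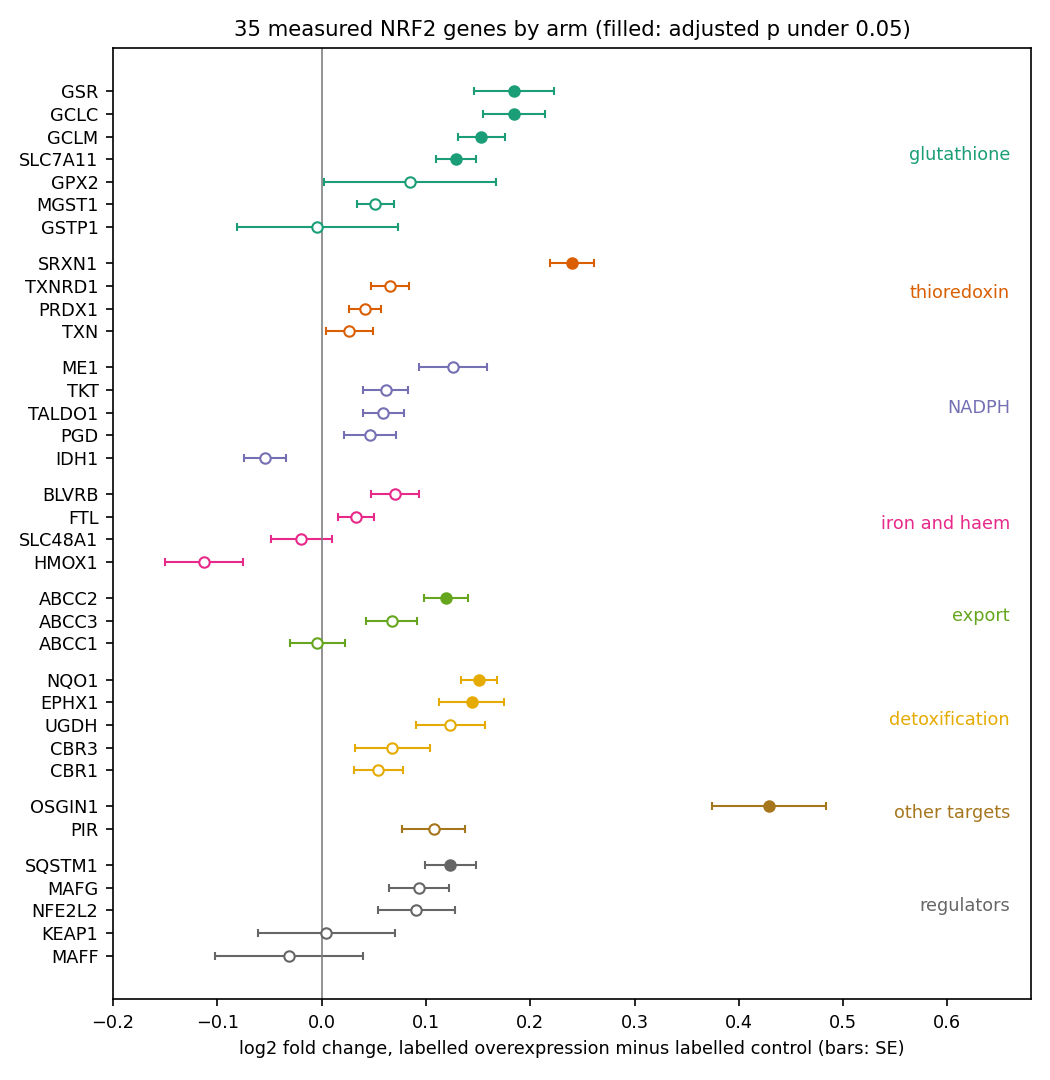
Log2 fold change, arrays labelled overexpression minus arrays labelled control, of the 35 measured members, 3 arrays a group. Bars are limma standard errors, filled points are called members and colours mark the arm; OSGIN1 lies farthest right at 0.43 and HMOX1 farthest left at -0.11.

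In every overexpression array the typical member lay above its own mean, and in every control array below it. The median deviation of the 35 members from their own means over the 6 arrays was 0.049, 0.045 and 0.036 in the overexpression arrays and -0.039, -0.033 and -0.044 in the control arrays. The same median over all genes stayed between -0.0093 and 0.0063. In the overexpression arrays 29, 26 and 26 members lay above their own mean, and in the controls 5, 5 and 7 did. No single array of a group set the members' median apart from the other arrays of its group.

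**Figure D3:**
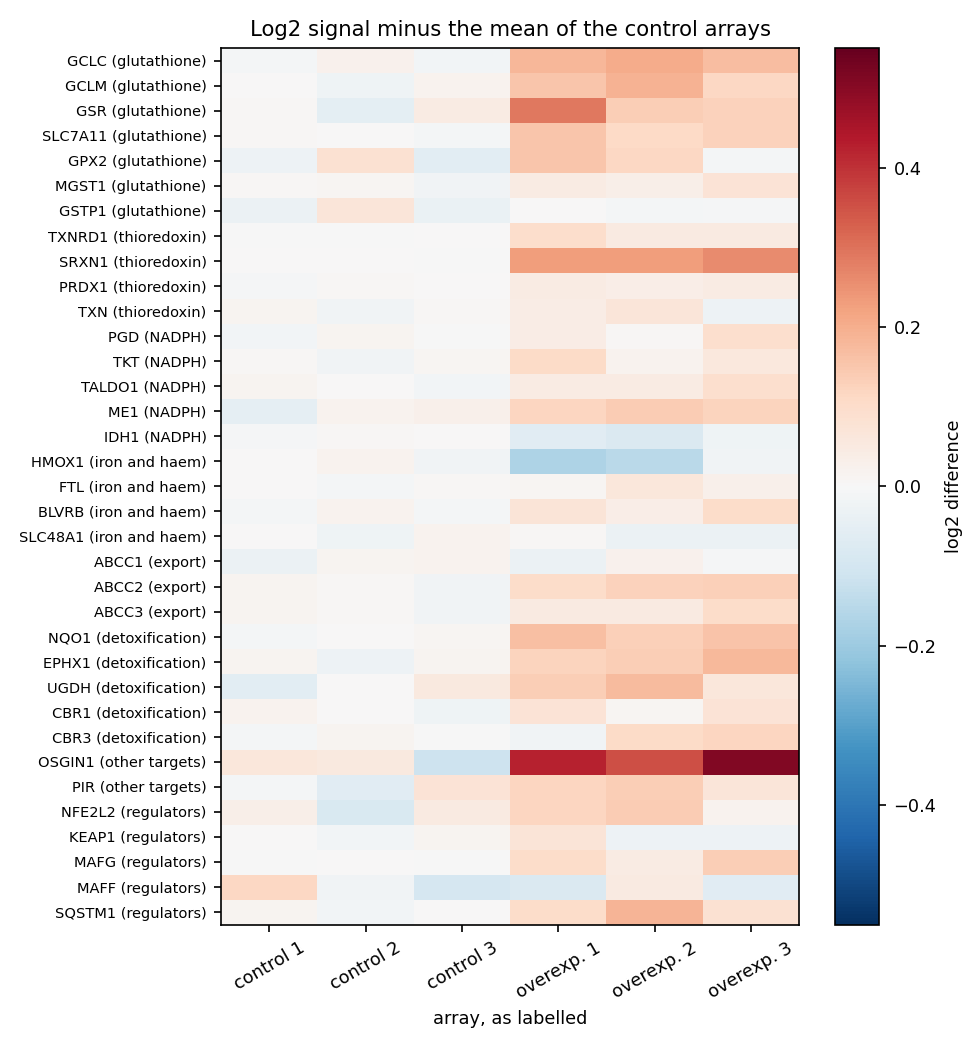
Log2 signal of each measured member in each array, minus the mean of the 3 control arrays, with rows ordered by arm and colour giving the log2 difference. The overexpression columns are mostly red, OSGIN1 most of all, while HMOX1 and IDH1 are blue, HMOX1 least so in the third overexpression array.

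The glutathione arm held the most calls, 4 of 7 measured members, and its median log2 fold change was 0.13. GCLC, the catalytic subunit of the enzyme that limits glutathione synthesis, read 8.95, 8.97 and 8.93 in the overexpression arrays and 8.76, 8.79 and 8.75 in the controls. All overexpression values lay above all controls, and GCLC rose by 0.18 ± 0.030 (SE; limma, adjusted p = 0.00421). GCLM, the modifier subunit of the same enzyme, read 11.63, 11.67 and 11.59 against 11.48, 11.45 and 11.50. Its groups did not overlap either, and it rose by 0.15 ± 0.023 (SE; limma, adjusted p = 0.00261). SLC7A11 imports cystine, the source of the cysteine in glutathione. It read 11.84, 11.80 and 11.81 against 11.69, 11.69 and 11.68, without overlap, and rose by 0.13 ± 0.019 (SE; limma, adjusted p = 0.00275). GSR, which returns oxidised glutathione to its reduced form with NADPH, read 10.92, 10.76 and 10.76 against 10.64, 10.58 and 10.68. The first overexpression array was the highest, and GSR rose by 0.18 ± 0.038 (SE; limma, adjusted p = 0.0224). Without the first overexpression array GSR gave 0.13 and was not called, and it was also lost without the first or the second control array.

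The 3 members that use glutathione as a substrate were not called. MGST1, a membrane glutathione transferase, read 13.21, 13.20 and 13.24 against 13.17, 13.17 and 13.14, a log2 fold change of 0.05 without overlap (limma, adjusted p = 0.183). GPX2, a glutathione peroxidase, gave 0.08 with overlapping groups, and GSTP1, a cytosolic transferase, gave -0.004. Both were read at a low level, with means over the 6 arrays of 4.72 and 4.53, below the median of the table, and whether these probe sets detect their transcripts is unknown in the absence of detection calls.

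In the thioredoxin arm 1 of 4 members rose, SRXN1, which repairs overoxidised peroxiredoxins. SRXN1 read 10.75, 10.76 and 10.79 in the overexpression arrays and 10.53, 10.53 and 10.52 in the controls. The gap between the groups was far wider than the spread within either, and SRXN1 rose by 0.24 ± 0.021 (SE; limma, adjusted p = 3.15e-05), a 1.18-fold higher signal. TXNRD1, the selenoenzyme that reduces thioredoxin with NADPH, read 13.31, 13.26 and 13.26 against 13.21, 13.21 and 13.21. These groups did not overlap, and the difference of 0.07 ± 0.018 (SE) was not called (limma, adjusted p = 0.0820). Its other probe sets, 11715650_a_at and 11750416_a_at, were called at 0.08 and 0.12 in the fit of every probe set (limma, adjusted p = 0.0376 and 0.00615). PRDX1, an abundant peroxiredoxin, differed by 0.04 without overlap, and TXN, thioredoxin itself, by 0.03 with overlap. Of the 5 TXN probe sets, 11753804_x_at alone was called, at 0.09 (limma, adjusted p = 0.0229 over all probe sets).

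None of the 5 NADPH members was called, and the arm's median was 0.06. At an unadjusted p under 0.05 (limma), 3 were higher and 1, IDH1, was lower, where 13.9% of all genes passed in either direction. ME1, the cytosolic malic enzyme, differed the most, with 8.74, 8.77 and 8.75 in the overexpression arrays and 8.58, 8.65 and 8.65 in the controls. Its groups did not overlap, at 0.13 ± 0.032 (SE; limma, adjusted p = 0.0613), and it was called in 3 of 16 alternative fits. TKT and TALDO1, the transketolase and transaldolase of the pentose phosphate pathway, gave 0.06 each without overlap, though a dimmer TKT probe set, 11719934_a_at, gave -0.13 and was not called. PGD, which makes NADPH in that pathway, gave 0.05 with overlap. IDH1, the cytosolic isocitrate dehydrogenase, read 11.49, 11.48 and 11.53 against 11.55, 11.56 and 11.56. It was the only member whose overexpression values all lay below the controls, at -0.05 ± 0.021 (SE; limma, adjusted p = 0.228).

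The iron and haem arm held members of both signs. None of its 4 measured members was called, and the median was 0.01. At an unadjusted p under 0.05 (limma) 1 was higher, BLVRB, and 1 was lower, HMOX1, beside the same 13.9% of all genes. HMOX1, the enzyme that breaks down haem and a standard NRF2 target, read 8.88, 8.90 and 9.03 in the overexpression arrays and 9.05, 9.07 and 9.03 in the controls. The first and second overexpression arrays lay below every control, the third did not, and the difference was -0.11 ± 0.038 (SE; limma, adjusted p = 0.163). Without the third overexpression array HMOX1 fell by 0.16 and was called (limma, adjusted p = 0.0201). That was the only 1 of 16 alternative fits that called it. All 3 HMOX1 probe sets had a negative sign. BLVRB, which reduces biliverdin, gave 0.07 without overlap, FTL, the light chain of the iron store ferritin, gave 0.03 without overlap, and SLC48A1, a haem transporter, gave -0.02 with overlap.

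Of the 3 exporters, ABCC2 rose and the others did not pass the test. ABCC2, the pump MRP2 that exports glutathione and glucuronide conjugates, read 11.02, 11.05 and 11.05 against 10.93, 10.92 and 10.90. No overexpression value fell among the controls, and it rose by 0.12 ± 0.021 (SE; limma, adjusted p = 0.00856). ABCC3, a related pump, gave 0.07 without overlap, while its dimmer probe set 11744194_a_at gave -0.08 and was not called. ABCC1 gave -0.004, with values from 9.83 to 9.89 in the overexpression arrays and from 9.83 to 9.88 in the controls. Its dimmer probe sets 11719421_a_at and 11719420_a_at gave 0.008 and 0.17, the latter without overlap, and were not called. The differences of the 3 exporters were not tested against each other.

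The detoxifying enzymes included NQO1, the quinone reductase that is the usual marker of NRF2 activity. It read 12.76, 12.73 and 12.75 in the overexpression arrays and 12.58, 12.60 and 12.61 in the controls. Every overexpression value lay above every control, and NQO1 rose by 0.15 ± 0.018 (SE; limma, adjusted p = 0.000384). EPHX1, the microsomal epoxide hydrolase, read 8.81, 8.82 and 8.87 against 8.71, 8.66 and 8.70 and rose by 0.14 ± 0.031 (SE; limma, adjusted p = 0.0289). Its groups did not overlap, but the call was lost when any of the 6 arrays was left out, with log2 fold changes of 0.13 to 0.16. UGDH, which makes the sugar donor for glucuronidation, read 10.25, 10.29 and 10.18 against 10.06, 10.12 and 10.17. Its highest control nearly met its lowest overexpression value, and the difference of 0.12 was not called (limma, adjusted p = 0.0755). UGDH was the 1 member whose probe set has the _x_at suffix, a mark of probes shared with other transcripts. It was called higher without the third overexpression or the third control array, and in 4 of 16 alternative fits in all. CBR1 and CBR3, carbonyl reductases, gave 0.05 and 0.07 with overlap.

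OSGIN1 had the largest log2 fold change of any member. OSGIN1 is an oxidative stress-induced growth inhibitor, and it read 7.91, 7.84 and 8.001 in the overexpression arrays and 7.55, 7.54 and 7.38 in the controls. The third control array was the lowest, the groups did not overlap, and OSGIN1 rose by 0.43 ± 0.055 (SE; limma, adjusted p = 0.000788), a 1.35-fold higher signal. Of the 174 genes called higher, 2 had a larger log2 fold change. Its other probe set, 11735676_a_at, gave 0.55 (limma, adjusted p = 8.36e-06 over all probe sets). PIR, an iron-binding nuclear protein, read 11.38, 11.40 and 11.33 against 11.25, 11.20 and 11.34. The third control array lay among the overexpression values, and the difference of 0.11 was not called (limma, adjusted p = 0.0944). Leaving out that array gave a call at 0.14, and PIR was called in 2 of 16 alternative fits.

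**Figure D4:**
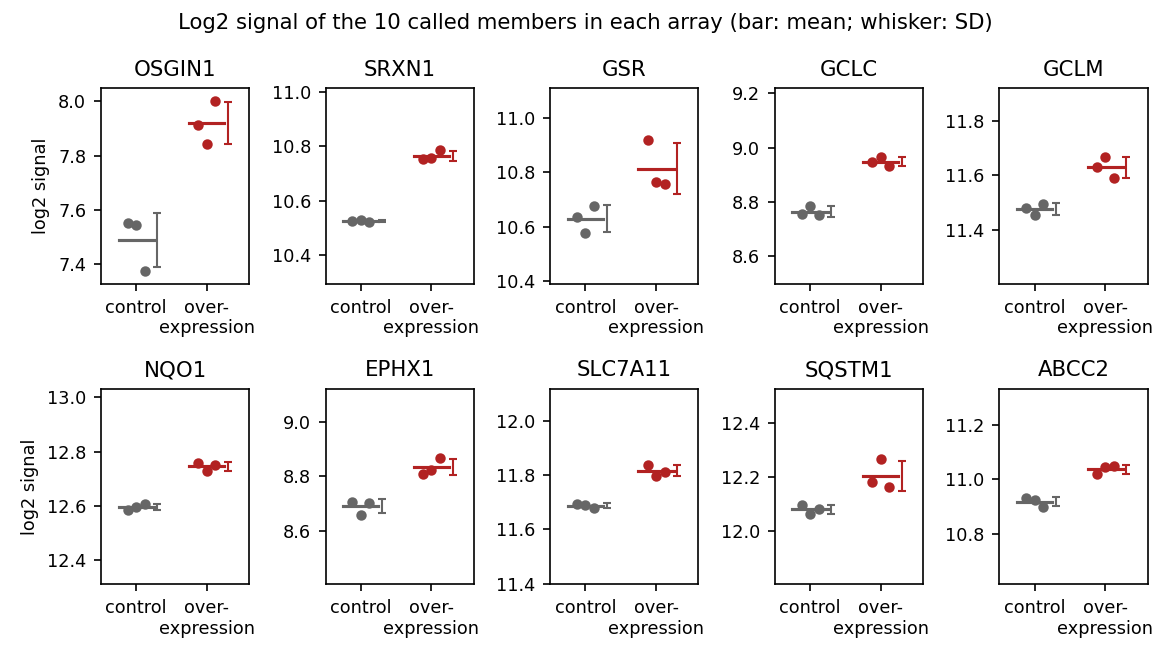
Log2 signal of the 10 called members in each array, control in grey and overexpression in red, with points for arrays, horizontal bars for means and whiskers for SD (n = 3). Every panel spans the same height, and in each the 3 red points lie above the 3 grey points, most widely for OSGIN1.

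Of the 5 measured regulators, SQSTM1 rose. SQSTM1 encodes p62, an autophagy receptor that binds KEAP1 and is itself a target of NRF2, and it read 12.18, 12.27 and 12.17 against 12.10, 12.06 and 12.08. The second overexpression array was the highest, there was no overlap, and SQSTM1 rose by 0.12 ± 0.025 (SE; limma, adjusted p = 0.0179). The call was lost without the first overexpression array or the first or second control array. All 5 of its probe sets were called, at 0.12 to 0.16. NFE2L2, which encodes NRF2, read 10.52, 10.55 and 10.43 against 10.44, 10.33 and 10.46. Its groups overlapped, at 0.09 ± 0.037 (SE; limma, adjusted p = 0.263). The transcript level of NFE2L2 does not show the amount of NRF2 protein, which is set mainly by degradation and was not measured. MAFG, a small MAF partner, gave 0.09 without overlap, and its brightest probe sets, 11717133_a_at and 11740103_a_at, hold identical values in all 6 arrays. MAFF, another partner, gave -0.03 and KEAP1 gave 0.005, both with overlap and at levels below the median of the table.

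The other probe sets of a member, some of them brighter _x_at sets, bear on how far each call depends on the probe set chosen. The 35 members had 92 probe sets, of which 22 were called higher and 0 lower (limma, adjusted over 49395 probe sets), where 0.601% of all probe sets were called higher and 0.873% lower. At an unadjusted p under 0.05 (limma), 50 were higher and 4 lower, against 5.95% and 6.89% of all probe sets. Without the first overexpression array 12 member probe sets were called higher, without the first control array 13, and without the trend 1. In those fits 0.198%, 0.196% and 0.00607% of all probe sets were called higher. Over all measured members, 48 of the 57 probe sets not chosen had the sign of the chosen one. Of the 7 CBR1 probe sets, the chosen one included, 4 had its sign. For the 8 called members with more than 1 probe set, all 14 other probe sets had the sign of the chosen one and 9 were called. NQO1, read also by 11717568_s_at, gave 0.20 there. SLC7A11 gave 0.19 and 0.16 on its other probe sets, and GCLC gave 0.24, 0.21 and 0.23. The second probe sets of GCLM, GSR and ABCC2 gave 0.21, 0.10 and 0.12 and were not called.

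Genes of the same pathway outside the 39 were called higher less often than the members, but more often than all genes. Of 112 further genes of glutathione, thioredoxin, NADPH, iron, export, detoxification and NRF2 control, 94 were measured. Of these, 4 were called higher (4.26%, against 0.960% of all genes) and 1 lower, where 1.20% of all genes were called lower. Their median log2 fold change was 0.01. The groups did not overlap for 22 that were higher, 23.4% against 9.68% of all genes. They did not overlap for 10 that were lower, where 8.61% of all genes were. ALDH3A1, an aldehyde dehydrogenase, read 9.06, 9.04 and 9.08 against 8.87, 8.84 and 8.89, without overlap, and rose by 0.20 (limma, adjusted p = 0.00285). PTGR1, a reductase of reactive alkenals, rose by 0.11 (limma, adjusted p = 0.00708), TXNRD2, the mitochondrial thioredoxin reductase, by 0.14 (adjusted p = 0.0124), and GLRX, a glutaredoxin, by 0.12 (adjusted p = 0.0262). TXNIP, which binds and inhibits thioredoxin, read 10.21, 10.20 and 10.26 against 10.35, 10.38 and 10.42. All its overexpression values lay below the controls, and it fell by 0.16 (limma, adjusted p = 0.00554). Without the first overexpression array PTGR1, TXNIP, TXNRD2 and GLRX were not called. Leaving out control array 1 or 2 also ended the TXNRD2 call, as it did for GLRX, which was lost too without control array 3 or the third overexpression array. Both calls also ended with the replicate block and with another choice of probe set. TXNRD2 gave 0.09 with the mean of its probe sets and 0.05 with the second-brightest, and GLRX gave 0.07 and 0.03. Of 13 further NADPH genes and 11 further iron and haem genes none was called (limma), with medians of -0.01 and -0.03. At an unadjusted p under 0.05 (limma), 17 of the 94 further genes were higher and 12 lower, where 6.95% and 6.97% of all genes were. By arm, 2 of these NADPH genes and 5 of these iron and haem genes were lower and none was higher. Of 23 further glutathione genes 8 were higher and 2 lower, and of 11 further detoxification genes 6 were higher and 0 lower. The aldo-keto reductases AKR1C1, AKR1C2 and AKR1C3, NRF2 targets that are close copies of each other, rose by 0.15, 0.12 and 0.15, but their signals may not be separate, and the second probe set of AKR1C3 gave -0.24 and the mean of both -0.05, without a call. AKR1C1 lost its call when overexpression array 1 or 2, or any control, was left out.

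**Figure D5:**
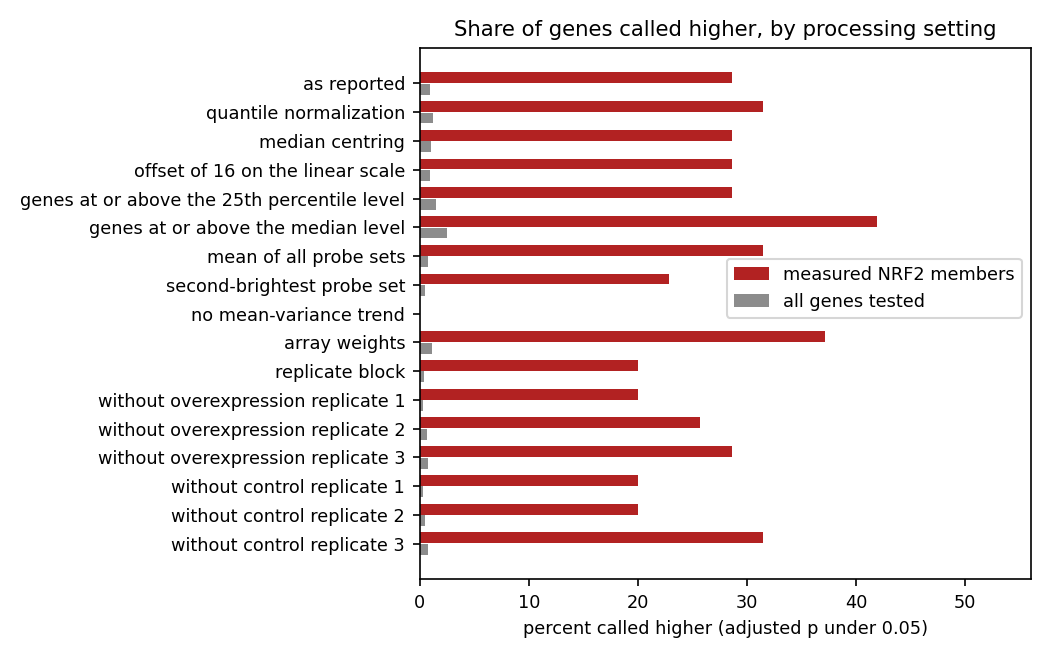
Percent of the measured members (red) and of all genes tested (grey) called higher at an adjusted p under 0.05, for the fit as reported and 16 alternatives. The red bar is 28.6% as reported, where the grey bar is 0.960%, and no member is called without the mean-variance trend.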

How the data were processed

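Total RNA was hybridised to 6 arrays, and the deposited table holds 49395 probe sets by 6 arrays. The deposited values were taken as log2 signals from their range of 2.15 to 14.33; the authors' tool is named as MAS5 in the submitters' processing notes, with no setting, yet their tight low end resembles RMA output. The size of fold changes and the meaning of low values stay unsettled with it. Detection calls were not used here, so whether dim probe sets detect their transcripts is unknown. Precision is limited by how few arrays there are.

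Probe sets naming 1 gene (44994, with 44967 matched by gene number to RefSeq) gave 18132 genes, each read by its brightest probe set on average, with _x_at probe sets as a last resort. The labelled groups, taken from the titles, were compared in R 4.3.3 with limma 3.58.1 (eBayes with a trend after lmFit, two-sided, Benjamini-Hochberg, threshold 0.05), after a check on simulated data. No dim genes were removed. The members and lists were chosen with earlier results of these data known, and no list was tested. Every member is reported, with array values for called members and the largest of each arm; other pathway genes are named if called. Marker lists covered epithelial, ovarian, fibroblast, endothelial and leukocyte genes. Alternatives were 2 normalizations, an offset, 2 filters, 2 choices of probe set, no trend, array weights, a replicate block and leaving out each array. Figures used matplotlib 3.10.9 in Python 3.11.15.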

Additional observations from a re-analysis of the deposited data

How the results depend on the processing

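Over 16 alternatives, the 10 members called higher became 7 to 13 in 15 of them and 0 without the mean-variance trend. In those 15, 0.309% to 2.50% of all genes were called higher, and 0.0165% were without the trend. With an array left out, 0.309% to 0.772% of all genes were called higher and 0.331% to 1.33% lower. GCLC, SLC7A11, SRXN1, NQO1 and OSGIN1 were called in every alternative that kept the trend, and their log2 fold changes ran from 0.12 to 0.55. SRXN1 has 1 probe set, so the 2 choices of probe set could not change its log2 fold change. The count of members called lower, 0, became 1 without the third overexpression array (HMOX1), so leaving out arrays gave 0 to 1. The median over members, 0.068, was 0.083 with the second-brightest probe set and between 0.062 and 0.076 with an array left out. Further pathway genes called higher, 4, became 6 of 79 with the filter at the median level and 5 of 94 with the mean of all probe sets. In these fits 2.50% and 0.711% of all genes were called higher. Further pathway genes called higher became 2 with the second-brightest probe set, 0 without the trend and 2 with the replicate block. The shares of all genes there were 0.469%, 0.0165% and 0.408%. With an array left out 1 to 4 further pathway genes were called higher. Further pathway genes called lower, 1, became 2 of 87 with the filter at the 25th percentile level, where 1.92% of all genes were. With the filter at the median level 3 of 79 were called lower, where 3.26% of all genes were. They became 2 with the mean of all probe sets, the second-brightest probe set and array weights. In these fits 1.24%, 0.838% and 1.6% of all genes were called lower. Without the trend 0 were called lower, where 0.0441% of all genes were, and 0 to 1 with an array left out. The median over the further pathway genes, 0.013, was -0.0014 with the mean of all probe sets and 0.0009 to 0.018 with an array left out. Member probe sets called higher, 22, became 1 without the trend and 12 to 21 with an array left out, and those called lower 0 to 1. With an array left out, 0.196% to 0.451% of all probe sets were called higher. The cause was not tested.

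CADM1, -2.12, was reversed at 0.17 with the second-brightest probe set and shrank to -0.32 with the mean of all probe sets. None of the members that changed sign was called under either setting. With the mean of all probe sets GSTP1 gave 0.061, TKT -0.0043, ABCC1 0.058 and ABCC3 -0.0051, and AKR1C3 gave -0.047. With the second-brightest probe set GSTP1 gave 0.13, TKT -0.13, SLC48A1 0.012, ABCC1 0.0076, ABCC3 -0.077 and CBR1 -0.0004, and AKR1C3 gave -0.24. With an array left out GSTP1 ran from -0.022 to 0.029, ABCC1 from -0.021 to 0.0095, KEAP1 from -0.028 to 0.021 and MAFF from -0.078 to 0.025.

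Deviations of arrays with the same replicate number had correlations of 0.13, -0.071 and -0.073 over genes. Arrays with unlike numbers ran from -0.12 to 0.18. The labels do not state whether the numbers pair the arrays, and with 3 arrays a group these values cannot settle it. With the replicate block 7 members were called higher, where 0.408% of all genes were. The calls of ABCC2, EPHX1 and SQSTM1 were lost, as were those of TXNRD2 and GLRX among the further pathway genes.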
